A study of Mus musculus with 24 samples.

Results

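Ribosome assembly factors and the proteins of small nucleolar ribonucleoproteins (snoRNPs) were followed in RNA-seq of 3T9 cells, an immortalised mouse fibroblast line. The 58 genes on the list were given by name, with no measured value in the rule, although earlier results of these data were known when the list was drawn up. Of these, 57 were found among the 21671 genes with RPKM values (read counts divided by the gene's length and the library's total), and Noc2l was not analysed here. The cells carried an empty vector (EV) or a construct labelled BP-MycER-WT, BP-MycER-HEA or BP-MycER-RA, called WT, HEA and RA below. MycER is a fusion of Myc, a transcription factor, with the oestrogen receptor's hormone-binding domain, and 4-hydroxytamoxifen (OHT) switches it on. All 8 groups received OHT, for 4 h or 8 h, so the EV libraries were the control at each time. Each group held 3 libraries. The labels do not say whether these came from separate cultures or whether each infected line was a pool or 1 clone, so the p-values gauge variation among libraries that may be purely technical. As background, HEA alters residues through which Myc reads the bases of its binding site, and RA alters arginines that touch the DNA backbone. No label names a change to the cells' own Myc gene. Libraries without OHT were not used here.

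A ribosome is built in the nucleolus from a long precursor RNA that RNA polymerase I makes. Box C/D snoRNPs methylate that precursor and box H/ACA snoRNPs turn chosen uridines into pseudouridine, while the U3 snoRNP nucleates the small-subunit (SSU) processome, a giant complex in which UTP-A and UTP-B are early-binding modules. Further factors, among them many DEAD-box helicases, then cut and fold the small-subunit (40S) and large-subunit (60S) precursors and escort them to the cytoplasm. Genes of this machinery are long known as a class that Myc induces. Myc with its partner Max binds the sequence CACGTG, called the E-box.

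Promoter windows show what DNA lies at the start of these genes. Windows from 250 bases before to 50 bases after the annotated start were taken from RefSeq (build GRCm38.p6), which held 50 of the 57 members (a gene with more than 1 window counted as holding a sequence if any window did). Fbl, Npm1, Tbl3, Wdr36, Rrp12, Bop1 and Rrs1 had no entry. Below are the 3 members that hold CACGTG and had the lowest p-values for WT against EV at 8 h, followed by Rrp9, which holds none and had the widest gap between WT and HEA at 8 h. Each runs 5′ to 3′ on the gene's strand, and capitals mark CACGTG. Wdr43 lies at chr17:71615965-71616264 on the plus strand, Imp4 at chr1:34439579-34439878 on the plus strand, Utp20 at chr10:88826765-88827064 on the minus strand and Rrp9 at chr9:106477059-106477358 on the plus strand.
Wdr43: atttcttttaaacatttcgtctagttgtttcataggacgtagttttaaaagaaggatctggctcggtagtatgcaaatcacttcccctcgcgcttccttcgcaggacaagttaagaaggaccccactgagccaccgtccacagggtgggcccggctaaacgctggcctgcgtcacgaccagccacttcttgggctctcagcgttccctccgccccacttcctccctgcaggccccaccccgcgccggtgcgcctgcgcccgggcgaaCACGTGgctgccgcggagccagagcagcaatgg
Imp4: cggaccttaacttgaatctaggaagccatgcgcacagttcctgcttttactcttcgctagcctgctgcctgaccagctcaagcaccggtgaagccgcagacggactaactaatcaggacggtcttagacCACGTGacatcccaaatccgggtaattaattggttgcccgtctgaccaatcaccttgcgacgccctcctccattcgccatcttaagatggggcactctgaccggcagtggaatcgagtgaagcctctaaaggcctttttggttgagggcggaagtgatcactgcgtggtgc
Utp20: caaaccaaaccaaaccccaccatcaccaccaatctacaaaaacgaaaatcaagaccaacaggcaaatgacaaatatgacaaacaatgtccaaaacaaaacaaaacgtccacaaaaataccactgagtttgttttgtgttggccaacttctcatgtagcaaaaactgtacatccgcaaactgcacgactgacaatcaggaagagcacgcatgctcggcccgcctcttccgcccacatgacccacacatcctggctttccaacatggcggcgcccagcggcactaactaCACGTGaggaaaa
Rrp9: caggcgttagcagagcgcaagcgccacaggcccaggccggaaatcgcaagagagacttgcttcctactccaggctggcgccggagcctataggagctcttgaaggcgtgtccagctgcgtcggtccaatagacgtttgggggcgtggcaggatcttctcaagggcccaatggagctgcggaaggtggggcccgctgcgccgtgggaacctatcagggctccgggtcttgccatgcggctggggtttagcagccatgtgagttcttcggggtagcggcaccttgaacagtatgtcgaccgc

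CACGTG began at base 18 after the start in Wdr43, at base 38 after it in Utp20 and at position -121 in Imp4. It was found in 10 of the 50 members with a window (20.0%), against 11.9% of 9032 tested genes and 8.09% of all 27025 genes with a window. The holders were Imp4, Ltv1, Mybbp1a, Nmd3, Nop2, Pes1, Tsr1, Utp18, Utp20 and Wdr43. Within the stretch from 100 bases before to 50 after the start, 16.0% of members and 7.6% of tested genes held it. The related sequence CACGCG, searched on both strands, was in 30.0% of members and 20.4% of tested genes. The looser form CANNTG, which includes CACGTG, was in 54.0% of members and 66.4% of tested genes. A match describes letters in a window and not a bound site, and the deposited files were made on build mm9, so these coordinates belong to RefSeq's build only.

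Members were abundant transcripts. The median of their mean levels over all libraries was 47.0 RPKM, against 16.7 RPKM for all 12268 genes tested. Npm1 (nucleophosmin, the nucleolar scaffold and histone chaperone) had the highest mean level at 141 RPKM, and the helicase gene Ddx49 had the lowest at 17.7 RPKM. All 57 members passed the filter on low values (at least 1 RPKM in at least 3 libraries). Whole reads could be recovered from the steps between RPKM values, and library totals ran from 9.82 to 12.79 M reads (M for mega, the usual unit of depth) with a median of 10.95 M. The cells showed 8 of 10 fibroblast markers at a mean of at least 1 RPKM over all libraries. Summed fibroblast markers at 8 h were 631 to 643 RPKM in EV, 584 to 685 in WT, 675 to 750 in HEA and 674 to 696 in RA. Epithelial, endothelial and muscle markers summed to at most 0.639 RPKM in any library, and adipocyte markers to 2.19 to 6.71. Macrophage and leukocyte markers summed to 16.3 to 26.5 RPKM. Of these 5 markers, 3 had a mean of at least 1 RPKM over all libraries, and Emr1 was at 0. The 3 libraries farthest from their group means over all genes were replicate 2 of EV and replicate 3 of WT in the 4 h set and replicate 3 of WT in the 8 h set, and counts without them are given below.

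WT raised most members and lowered none by the test. Differences below are in log2(RPKM + 0.5) ± SE from limma, with p-values adjusted over all tested genes and 0.05 as the threshold. At 4 h 38 of 57 members rose against EV, where 11.6% of all tested genes rose and 14.4% fell. At 8 h 44 rose, where 15.2% of tested genes rose and 20.1% fell. The count of members that fell was 0 at both times in limma, also at an unadjusted p under 0.05, and 0 with voom on the recovered reads. In bulk RNA, a change of a gene's RNA per cell and a change in which cells were sampled cannot be told apart. RPKM divides by the library's total, so a change of RNA per cell shared by all genes would not show. The median member difference was 0.25 at 4 h and 0.31 at 8 h, while the median of all tested genes was -0.01 and -0.02. In 51 members all 3 WT libraries at 8 h lay above all 3 EV libraries, which 22.4% of tested genes also did. At 4 h this held for 43 members and 16.1% of tested genes. Both times shared 35 of the risen members, and how many of all tested genes rose at both times was not counted here. Without the 3 farthest libraries 32 members rose at 4 h and 44 at 8 h. When only the EV and WT libraries at 4 h entered the fit, 19 rose.

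HEA shifted most members the other way against the same EV libraries. At 4 h 40 members fell and 2 rose, where 25.5% of all tested genes fell and 17.7% rose. At 8 h 36 fell and 5 rose, where 27.5% of tested genes fell and 20.2% rose. The median member difference was -0.28 at 4 h and -0.26 at 8 h, against -0.06 and -0.05 over all tested genes. In 41 members all 3 HEA libraries at 8 h lay below all 3 EV libraries, as they did in 37.0% of tested genes. Of the fallen members, 35 fell at both times, and how many of all tested genes did so was not counted either. Centring every library on its median left 31 members fallen in HEA at 4 h and 27 at 8 h, where 2676 and 2642 of all 12268 tested genes fell. In WT the same centring gave 43 risen members at 4 h and 47 at 8 h, where 1907 and 2433 of tested genes rose. Centring also moved the share of calls over all tested genes that were higher at 8 h. That share went from 42.3% to 53.6% in HEA and from 43.0% to 55.2% in WT. WT and HEA share their EV controls, so the direct test between them is given below.

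RA gave few calls against EV. At 4 h 8 members fell and 1 rose, where 2.73% of tested genes fell and 2.58% rose. At 8 h 1 member fell and 0 rose, where 1.29% of tested genes fell and 1.49% rose. Most fitted values were nevertheless below EV, 53 of 57 at 4 h and 52 at 8 h, with medians of -0.17 and -0.13 where all tested genes had 0.02 and 0.00. In 38 members all 3 RA libraries at 8 h lay below all 3 EV libraries and in 1 above them, where 17.8% and 18.2% of tested genes did so. At 4 h these counts were 24 and 1, where 10.8% and 14.3% of tested genes did so. At an unadjusted p under 0.05, 19 members were lower and 1 was higher in RA at 8 h, and voom called 4 lower and 0 higher. The shares of all tested genes at an unadjusted p and in the smaller fits below are not given here. When only the EV and RA libraries entered the fit, 0 members were called at 4 h, where 29 were lower at an unadjusted p under 0.05 in the fit of all libraries, and 14 fell and 1 rose at 8 h.

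**Figure D1:**
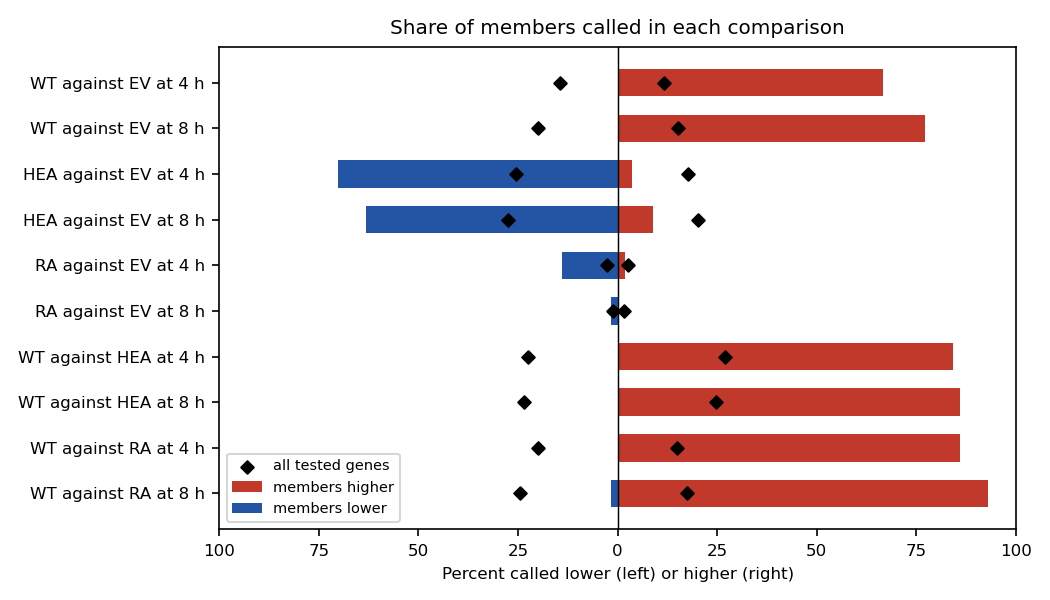
Percent of the 57 members called lower (left) or higher (right) at an adjusted p under 0.05 in each comparison, with diamonds for the percent of all 12268 tested genes. WT bars lie to the right (38 and 44 members higher against EV), HEA bars mostly to the left (40 and 36 lower), and RA bars are short.

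Library by library the level of the whole set was tight. The median over members of log2(RPKM + 0.5) was 5.62, 5.60 and 5.60 in the EV libraries at 8 h and 5.96, 5.93 and 5.91 in WT. It was 5.22, 5.35 and 5.31 in HEA and 5.44, 5.42 and 5.42 in RA. The 4 groups did not overlap at 8 h, with the order WT, EV, RA, HEA. At 4 h the medians were 5.57 to 5.61 in EV, 5.86 to 5.88 in WT, 5.36 to 5.44 in RA and 5.21 to 5.37 in HEA, so RA and HEA overlapped. HEA replicate 2, at 5.21, was the lowest library of all.

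**Figure D2:**
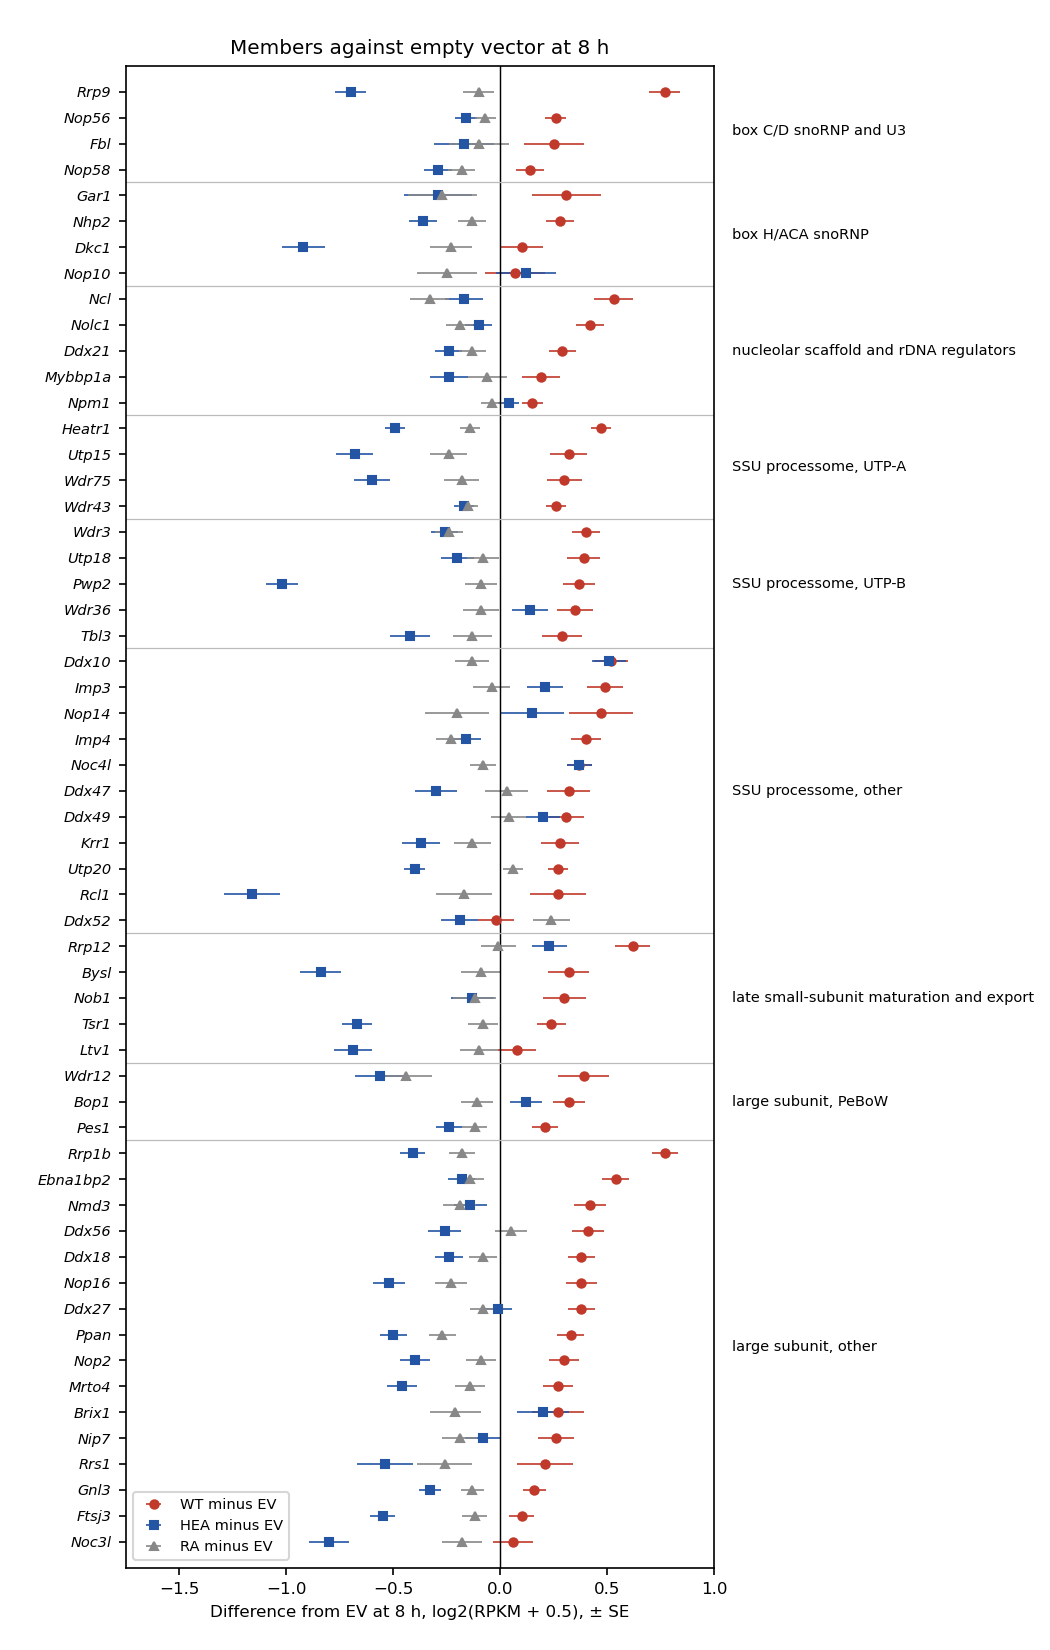
Difference from EV at 8 h for each of the 57 members in log2(RPKM + 0.5), with bars of 1 SE, ordered by role. WT (circles) ranges from -0.02 to 0.77 and HEA (squares) from -1.16 to 0.51, and RA (triangles) lies between -0.44 and 0.24.

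Among the box C/D and U3 proteins the U3-specific factor Rrp9 stood out, while the methylase Fbl did not pass in WT. Rrp9, a U3 snoRNP protein with WD repeats, had 63.5, 73.4 and 61.5 RPKM in EV at 4 h, 101.4, 92.3 and 98.0 in WT, 42.9, 40.0 and 39.0 in HEA and 52.7, 56.7 and 56.8 in RA. At 8 h HEA had 34.8, 39.8 and 36.3 RPKM, while WT had 100.1 RPKM in replicate 1, nearly the same in replicate 2 and 110.8 in replicate 3. No WT library overlapped EV and no HEA library overlapped EV at either time. Against EV, Rrp9 rose in WT by 0.56 ± 0.073 at 4 h (adjusted p = 1.49e-05) and fell in HEA by 0.69 ± 0.073 at 4 h (2.75e-07) and 0.70 ± 0.073 at 8 h (1.6e-07).

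Nop56 and Nop58 are the paired core proteins of box C/D particles. Nop56 had 114.2, 110.5 and 115.0 RPKM in EV at 8 h, 132.4, 136.4 and 139.7 in WT, 100.9, 102.8 and 99.6 in HEA and 108.8, 109.8 and 106.0 in RA. The groups WT, EV, RA and HEA stood in that order without overlap. It rose in WT by 0.26 ± 0.05 (adjusted p = 0.000368) and fell in HEA by 0.16 ± 0.05 (0.0113), and the latter was lost after median centring (0.30). Nop58 fell in HEA at both times (-0.33 ± 0.064 at 4 h and -0.29 ± 0.064 at 8 h). In WT it rose at 4 h (0.20 ± 0.064, adjusted p = 0.0224), a call lost without EV replicate 2 or WT replicate 2 or 3 of that time (0.0701 to 0.0996), and at 8 h its difference was 0.14 ± 0.064 (0.0995).

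Fbl, fibrillarin, the methyltransferase of box C/D particles, varied widely between libraries of 1 group at 4 h. Its levels were 50.7, 69.4 and 56.2 RPKM in EV, 56.7, 53.0 and 44.4 in WT, 53.6, 35.1 and 49.6 in HEA and 49.0, 36.3 and 51.9 in RA. In the 8 h set it had 57.2, 53.4 and 57.1 RPKM in EV, 65.1, 63.4 and 71.5 in WT and 45.7, 52.8 and 50.5 in HEA. The difference of WT from EV was -0.19 ± 0.14 at 4 h and 0.25 ± 0.14 at 8 h, with adjusted p-values of 0.35 and 0.176. The high EV replicate 2, the low WT replicate 3 and the low HEA and RA replicates 2 of the 4 h set recurred in some other members. Rrs1 had 66.1 RPKM in that EV library against 53.4 and 56.8, and 48.0 in that WT library against 67.1 and 58.8. Nop14 had 22.5 RPKM in RA replicate 2 against 35.1 and 37.5. The part of these libraries in the 4 h results of such members was not tested beyond leaving them out.

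The box H/ACA proteins form the pseudouridylation particle and also bind telomerase RNA. Dkc1 (dyskerin), the pseudouridine synthase, had 61.1, 58.8 and 58.8 RPKM in EV at 8 h, 67.6, 67.3 and 56.8 in WT, 29.8, 33.2 and 30.9 in HEA and 48.8, 54.4 and 49.2 in RA. WT overlapped EV, HEA lay well below, and RA was also below all EV libraries without passing. Dkc1 fell in HEA by 0.84 ± 0.10 at 4 h (adjusted p = 1.72e-06) and 0.92 ± 0.10 at 8 h (4.59e-07), and its difference in WT was 0.22 ± 0.10 and 0.10 ± 0.10, neither past the threshold.

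Of the 4 H/ACA proteins only Nhp2, a core protein, rose in WT at 8 h, where 15.2% of tested genes rose. It had 70.4, 67.9 and 74.0 RPKM in EV, 85.7, 82.7 and 88.9 in WT and 52.2, 56.0 and 57.2 in HEA. Its differences at 8 h were 0.28 ± 0.066 in WT (adjusted p = 0.00266) and -0.36 ± 0.066 in HEA (0.000163). Gar1, which helps release the product RNA, had 29.4, 28.8 and 29.8 RPKM in EV, 35.7, 34.3 and 40.1 in WT and 22.3, 27.0 and 22.4 in HEA at 8 h. The 3 groups did not overlap, yet neither difference from EV passed (0.31 ± 0.16, adjusted p = 0.135, and -0.29 ± 0.16, 0.138), and WT against HEA did (0.61 ± 0.16, 0.00363). Nop10, the smallest H/ACA protein, had 72.6, 64.3 and 47.6 RPKM in WT at 8 h, a range that covered the 3 EV libraries at 56.5 to 59.5. It rose in WT at 4 h (0.40 ± 0.14, adjusted p = 0.0439), a call lost without EV replicate 2 (0.23) or WT replicate 3 (0.259) of that time, among others.

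Of the nucleolar scaffold and rDNA regulators, 4 of 5 rose in WT at 8 h, where 15.2% of tested genes rose. In HEA 2 of 5 fell, not far from the 27.5% of tested genes that fell. Nucleolin (Ncl), which binds the nascent precursor RNA, had 55.0, 58.9 and 57.4 RPKM in EV at 8 h, 79.5, 78.8 and 90.7 in WT, 53.7, 52.2 and 46.7 in HEA and 42.7, 48.5 and 44.6 in RA. WT was above all EV libraries, and HEA and RA were below them. The difference was 0.53 ± 0.09 in WT (adjusted p = 0.00011), -0.17 ± 0.09 in HEA (0.135) and -0.33 ± 0.09 in RA (0.0502). Ncl's counting length implied by its steps was 8261 bases, so its level per length rests on that value.

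Nolc1, a chaperone that shuttles snoRNPs, had 82.7, 78.0 and 84.2 RPKM in EV at 8 h, 109.3, 105.4 and 112.3 in WT, 74.5, 78.9 and 74.9 in HEA and 71.7, 72.7 and 70.7 in RA. It rose in WT by 0.42 ± 0.064 (adjusted p = 4.04e-05), and RA was below all EV libraries without passing (-0.19 ± 0.064, 0.123). Ddx21, a helicase of polymerase I transcription and early processing, rose by 0.29 ± 0.063 in WT and fell by 0.24 ± 0.063 in HEA at 8 h, the fall lost after median centring (0.0608). Npm1 rose by 0.20 ± 0.049 in WT at 4 h and 0.15 ± 0.049 at 8 h (adjusted p = 0.021), the latter lost without EV replicate 1 or 3 or WT replicate 1 or 2 (0.0601 to 0.0799). In HEA Npm1 differed from EV by 0.04 ± 0.049 at 8 h. Mybbp1a, a nucleolar Myb-binding protein, had 95.9, 93.1 and 98.5 RPKM in EV, 105.9, 102.3 and 119.9 in WT and 80.5, 82.1 and 80.1 in HEA at 8 h. Its difference in WT was 0.19 ± 0.09 (adjusted p = 0.112), and its fall in HEA (-0.24 ± 0.09, 0.031) was lost without EV replicate 1 or 3 or any HEA replicate (0.0536 to 0.0912).

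All 4 UTP-A members rose in WT and fell in HEA at both times, as did 2.76% of tested genes at 4 h and 3.52% at 8 h. Heatr1, the large scaffold that is UTP10 in yeast, had 46.5, 49.5 and 48.8 RPKM in EV at 4 h, 60.3, 61.8 and 61.8 in WT, 38.9, 37.7 and 39.4 in HEA and 43.4, 44.0 and 42.9 in RA. At 8 h the same groups read 45.0, 48.0 and 45.4, then 65.3, 63.8 and 62.8, then 32.7, 34.8 and 31.0, then 42.0, 42.2 and 41.0 RPKM. All groups were apart at each time, in the order WT, EV, RA, HEA. Heatr1 rose in WT by 0.34 ± 0.047 at 4 h (adjusted p = 2.64e-05) and 0.47 ± 0.047 at 8 h (2.67e-07), and it fell in HEA by 0.32 ± 0.047 (2.06e-05) and 0.49 ± 0.047 (7.8e-08). In RA it was lower by 0.15 ± 0.047 and 0.14 ± 0.047 without passing (0.0698 and 0.105).

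Wdr43 (UTP5 in yeast) had 64.7, 65.0 and 65.0 RPKM in EV at 8 h, 77.7, 78.7 and 77.4 in WT, 56.7, 58.8 and 57.9 in HEA and 57.8, 59.4 and 57.7 in RA. HEA and RA overlapped each other and both lay under EV. It rose by 0.26 ± 0.046 in WT (adjusted p = 0.000159) and fell by 0.17 ± 0.046 in HEA (0.00519, lost after median centring at 0.159). Utp15 and Wdr75 (UTP17 in yeast) fell further in HEA, by 0.68 ± 0.086 and 0.60 ± 0.083 at 8 h, while their rise in WT was 0.32 ± 0.086 and 0.30 ± 0.083. The rise of Wdr75 at 8 h was lost without WT replicate 1 (0.053).

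UTP-B held Pwp2, which fell steeply in HEA. Pwp2, its central WD-repeat protein, had 51.5, 53.8 and 48.4 RPKM in EV at 4 h, 65.2, 62.0 and 68.6 in WT, 25.6, 29.1 and 27.2 in HEA and 44.2, 50.4 and 45.0 in RA. At 8 h it had 48.8, 46.9 and 47.9 in EV, 62.0, 60.6 and 62.9 in WT, 21.4, 24.8 and 24.1 in HEA and 50.3, 41.5 and 43.2 in RA. Every HEA library lay below every library of the other groups, and RA overlapped EV at both times. The fall in HEA was 0.90 ± 0.074 at 4 h (adjusted p = 1.42e-08) and 1.02 ± 0.074 at 8 h (1.6e-09), and the rise in WT was 0.35 ± 0.074 (0.00181) and 0.37 ± 0.074 (0.000697).

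The other UTP-B members spread widely in HEA although all 5 of UTP-B rose in WT at 8 h, where 15.2% of tested genes rose. Wdr3 had 29.0, 29.5 and 29.7 RPKM in EV at 8 h, 40.5, 39.0 and 37.7 in WT, 23.6, 25.6 and 24.2 in HEA and 25.0, 25.5 and 24.1 in RA. It rose by 0.40 ± 0.065 in WT (adjusted p = 6.39e-05), fell by 0.26 ± 0.065 in HEA (0.00257) and was lower in RA at 8 h by 0.24 ± 0.065 (0.0505). Utp18 rose by 0.39 ± 0.076 in WT, and its fall of 0.20 ± 0.076 in HEA (0.0386) was lost without EV replicate 1 or 2 or HEA replicate 1 or 3 (0.0814 to 0.131). Tbl3 (UTP13 in yeast) fell by 0.42 ± 0.093 in HEA, and its rise of 0.29 ± 0.093 in WT (0.0184) was lost without EV replicate 2 or WT replicate 1 (0.0738 and 0.0627). Wdr36 (UTP21 in yeast) was the exception in HEA, with 35.2, 38.7 and 38.4 RPKM there against 33.5, 34.4 and 33.9 in EV and a difference of 0.14 ± 0.084 (0.188).

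Elsewhere in the SSU processome, 9 of 11 members rose in WT at 8 h, where 15.2% of tested genes rose. In HEA 4 of the 11 fell and 4 rose, not far from the 27.5% and 20.2% of tested genes that did so. Ddx10, a helicase of early small-subunit cleavage, had 25.1, 28.6 and 28.8 RPKM in EV at 4 h, 37.3, 38.9 and 39.1 in WT, 38.5, 31.9 and 39.6 in HEA and 24.4, 21.4 and 26.0 in RA. At 8 h it had 28.3, 27.9 and 27.3 in EV, 41.7, 39.9 and 38.5 in WT, 39.8, 40.4 and 39.1 in HEA and 25.9, 26.4 and 24.1 in RA. HEA libraries lay among the WT libraries at 8 h and above all EV libraries at both times. It rose in HEA by 0.41 ± 0.079 at 4 h (adjusted p = 0.000336) and 0.51 ± 0.079 at 8 h (2.64e-05), and in WT by 0.48 ± 0.079 and 0.52 ± 0.079.

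Noc4l, a partner of Nop14 in the same complex, also rose in both WT and HEA. It had 43.5, 42.0 and 41.6 RPKM in EV at 8 h, 57.9, 55.8 and 51.0 in WT, 52.5, 58.5 and 53.5 in HEA and 38.6, 39.2 and 42.2 in RA. The rise was 0.37 ± 0.059 in both WT and HEA at 8 h (adjusted p = 6.41e-05 and 3.81e-05), and its rise in HEA at 4 h (0.19 ± 0.059, 0.0123) was lost without HEA replicate 1 of that time (0.0722). The difference between WT and HEA at 8 h was 0.01 for Ddx10, with a 95% interval of -0.16 to 0.17, and 0.00 for Noc4l, with an interval of -0.12 to 0.12. Intervals of that width leave room for a small difference either way.

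Imp3 and Ddx49 rose in HEA at 8 h with less support. Imp3, which joins U3 to the precursor, differed from EV by 0.49 ± 0.085 in WT (adjusted p = 0.000137) and 0.21 ± 0.085 in HEA (0.0499). The HEA call was lost when any of 17 libraries was left out, up to 0.211 without EV replicate 2 of 8 h. Ddx49 differed by 0.31 ± 0.081 in WT and 0.20 ± 0.081 in HEA (0.0485), the latter lost without EV replicate 3 of 8 h (0.187) among others. Imp4, the partner of Imp3 whose window is printed above, had 49.1, 44.6 and 50.3 RPKM in EV, 66.3, 63.8 and 59.7 in WT, 39.9, 43.8 and 44.7 in HEA and 42.2, 38.1 and 42.0 in RA at 8 h. It rose in WT by 0.40 ± 0.07 (0.000177), and HEA overlapped EV by a narrow margin (-0.16 ± 0.07, 0.0608).

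Rcl1, a cyclase-like endonuclease of the processome, had the deepest fall of all members. It had 33.8, 37.5 and 38.4 RPKM in EV at 4 h, 41.2, 40.7 and 39.4 in WT, 21.5, 12.1 and 17.4 in HEA and 28.7, 26.5 and 33.5 in RA. At 8 h it had 37.9, 36.5 and 39.5 in EV, 47.3, 45.4 and 45.2 in WT, 14.7, 19.0 and 16.5 in HEA and 31.6, 34.5 and 34.9 in RA. WT lay above, and HEA and RA below, all EV libraries at both times, and RA passed at neither time. The fall in HEA was 1.12 ± 0.13 at 4 h (adjusted p = 1.41e-06) and 1.16 ± 0.13 at 8 h (6.32e-07), and the WT difference of 0.27 ± 0.13 at 8 h did not pass (0.118).

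Utp20, a long scaffold whose window carries CACGTG, had 49.8, 53.0 and 49.9 RPKM in EV at 8 h, 61.6, 60.7 and 61.9 in WT, 37.7, 40.2 and 37.5 in HEA and 55.3, 52.9 and 51.2 in RA. It rose in WT by 0.27 ± 0.048 (adjusted p = 0.000191), fell in HEA by 0.40 ± 0.048 (1.12e-06) and differed by 0.06 ± 0.048 in RA. Krr1, a KH-domain factor of the processome, fell by 0.37 ± 0.087 in HEA, and its rise of 0.28 ± 0.087 in WT was lost without EV replicate 3 or WT replicate 1 or 2 (0.055 to 0.0645). Ddx47, a helicase, fell by 0.30 ± 0.10 in HEA (0.0189), a call lost without EV replicate 1 or 3 or HEA replicate 1 (0.0573 to 0.112). Nop14 rose by 0.47 ± 0.15 in WT at 8 h (0.0237), a call lost without EV replicate 1 or 3 or WT replicate 3 (0.0577 to 0.0845).

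Ddx52, the counterpart of the yeast helicase ROK1, went against the rest. It had 58.3, 47.7 and 55.1 RPKM in EV at 4 h, 60.0, 61.2 and 67.1 in WT, 46.1, 48.7 and 54.2 in HEA and 64.4, 73.6 and 65.7 in RA. At 8 h it had 54.3, 52.8 and 50.3 in EV, 53.8, 54.9 and 46.6 in WT, 41.9, 46.5 and 49.9 in HEA and 66.1, 62.6 and 58.4 in RA. RA was the highest group at 8 h, with WT overlapping EV. It was the 1 member higher in RA at 4 h (0.34 ± 0.086, adjusted p = 0.0276) and the 1 member lower in WT than in RA at 8 h (-0.27 ± 0.086, 0.0168). Leaving out EV replicate 2 or 3 or RA replicate 1 or 2 ended the first call (0.0511 to 0.181), and leaving out WT replicate 3 or RA replicate 1 ended the second (0.0985 and 0.0782).

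**Figure D3:**
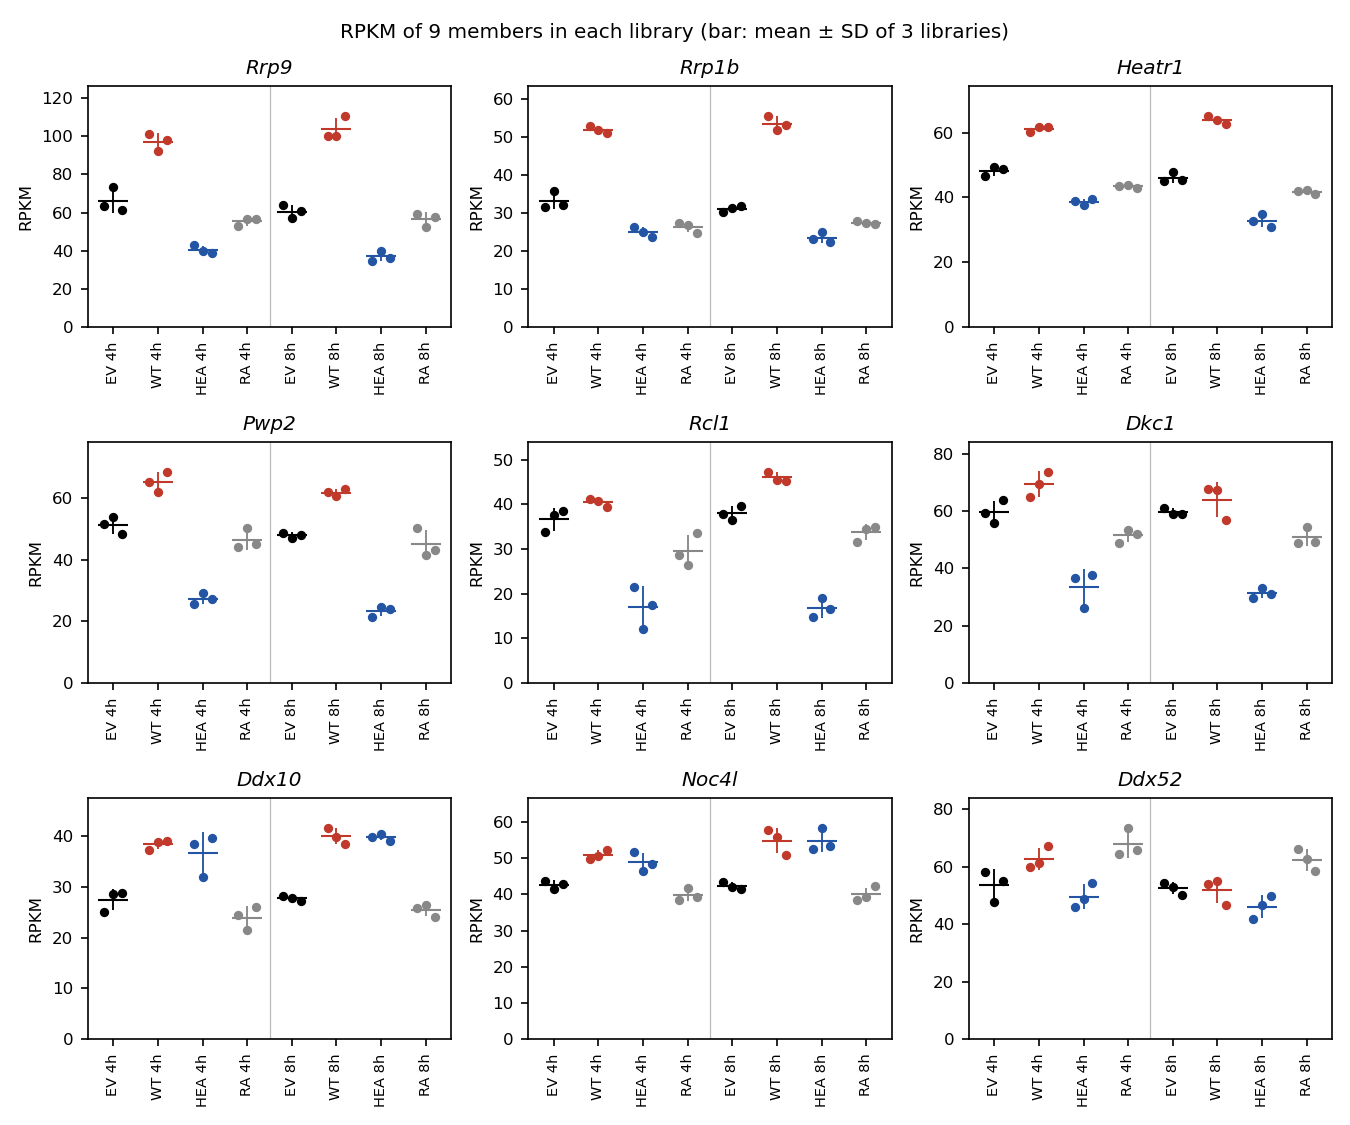
RPKM of 9 members in each of the 24 libraries, with points for libraries, a horizontal line for the mean and a vertical line for 1 SD of 3 libraries. Rrp9, Rrp1b, Heatr1 and Pwp2 are highest in WT and lowest in HEA. Rcl1 and Dkc1 are lowest in HEA, with RA also below EV. Ddx10 and Noc4l are high in both WT and HEA at 8 h, and Ddx52 is highest in RA.

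Of the 5 late 40S factors, 3 fell in HEA at 8 h (Bysl, Ltv1 and Tsr1), 1 rose (Rrp12) and Nob1 did not pass, with differences from -0.84 to 0.23 and a median of -0.67. Over all tested genes 27.5% fell and 20.2% rose in that comparison. In WT 1 of the 5 rose at 4 h and 4 at 8 h, where 11.6% and 15.2% of tested genes rose. The test of whether the WT difference changed between those times called 0 of the 5 in limma, with 1 at an unadjusted p under 0.05 and 0 members in voom. Tsr1, a GTPase-like factor of cytoplasmic 40S maturation, had 33.6, 34.4 and 33.7 RPKM in EV at 8 h, 40.2, 39.6 and 40.6 in WT, 20.3, 22.2 and 20.8 in HEA and 32.8, 31.8 and 31.8 in RA. It fell in HEA by 0.66 ± 0.07 at 4 h (adjusted p = 3.46e-07) and 0.67 ± 0.07 at 8 h (1.92e-07), and it rose in WT by 0.24 ± 0.07 at 8 h (0.0108). Bysl (bystin), a processing factor of late nuclear 40S particles, fell in HEA by 0.84 ± 0.095 at 8 h and rose in WT by 0.32 ± 0.095 (0.0117), the rise lost without EV replicate 2 (0.0599).

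Ltv1, an export-coupled 40S factor, had 60.0, 59.0 and 59.5 RPKM in EV at 8 h, 62.3, 64.5 and 61.8 in WT and 34.2, 39.7 and 36.0 in HEA. WT was above all EV libraries by a small step that did not pass (0.08 ± 0.089), and the fall in HEA was 0.69 ± 0.089 (adjusted p = 2.75e-06). Rrp12, an export factor with HEAT repeats, had 35.5, 35.9 and 34.9 RPKM in EV, 53.8, 51.5 and 59.7 in WT, 40.6, 44.5 and 39.9 in HEA and 37.9, 33.2 and 34.7 in RA at 8 h. It rose by 0.62 ± 0.082 in WT (6.66e-06) and by 0.23 ± 0.082 in HEA (0.0259), the HEA call being lost without EV replicate 1 or 3 or HEA replicate 2 (0.0576 to 0.115). Nob1, the endonuclease that makes the final 18S end, rose by 0.30 ± 0.10 in WT at 8 h (0.0262), a call lost without any EV replicate or without WT replicate 1 or 3 (0.052 to 0.0802).

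The PeBoW complex (Pes1, Bop1 and Wdr12), needed to process the large-subunit precursor, rose in WT at 8 h in all 3 members, and 2 of the 3 fell in HEA. Over all tested genes 15.2% rose in WT and 27.5% fell in HEA at that time. Bop1 had 81.8, 70.2 and 81.9 RPKM in EV at 8 h, 98.0, 91.7 and 103.3 in WT, 82.1, 84.7 and 86.6 in HEA and 76.5, 68.1 and 72.3 in RA. It rose by 0.32 ± 0.075 in WT (adjusted p = 0.00199) and did not pass in HEA (0.12 ± 0.075, 0.205). Pes1 had 60.3, 56.3 and 59.0 RPKM in EV, 68.5, 66.2 and 68.6 in WT and 45.4, 52.7 and 50.3 in HEA, rising by 0.21 ± 0.06 (0.00965) and falling by 0.24 ± 0.06 (0.00233). Wdr12 fell by 0.56 ± 0.12 in HEA, and its rise of 0.39 ± 0.12 in WT (0.0137) was lost without WT replicate 1 (0.0575). In RA at 8 h Wdr12 was lower by 0.44 ± 0.12, at 0.0507.

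Of the 16 other 60S factors, 12 rose in WT and 12 fell in HEA at 8 h, where 15.2% and 27.5% of tested genes did so. Rrp1b, a nucleolar protein that also binds chromatin, had 31.7, 35.7 and 32.2 RPKM in EV at 4 h, 52.9, 52.0 and 51.2 in WT, 26.3, 25.0 and 23.7 in HEA and 27.4, 27.0 and 24.8 in RA. No group overlapped EV. The WT difference of 0.64 ± 0.06 at 4 h was the largest of any member at that time (adjusted p = 2.42e-07), and Rrp1b fell in HEA by 0.40 ± 0.06 at 4 h (2.08e-05) and 0.41 ± 0.06 at 8 h (1.42e-05). It also fell in RA at 4 h by 0.32 ± 0.06 (0.00483), which only the fit of those groups alone did not call (0.113).

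Ebna1bp2, a 60S precursor protein, had 26.9, 27.0 and 27.3 RPKM in EV at 8 h, 40.7, 39.9 and 38.4 in WT, 22.5, 24.5 and 24.6 in HEA and 26.0, 23.9 and 23.9 in RA. It rose by 0.54 ± 0.064 in WT (adjusted p = 1.95e-06), and its fall of 0.18 ± 0.064 in HEA (0.0264) was lost without any EV replicate or without HEA replicate 1 (0.0522 to 0.13). Ppan, a factor of large-subunit assembly, had 35.5, 36.3 and 34.5 RPKM in EV, 44.7, 43.3 and 46.0 in WT, 24.6, 25.4 and 24.7 in HEA and 30.2, 27.4 and 30.1 in RA at 8 h. It was the 1 member lower in RA at both times, by 0.38 ± 0.063 at 4 h (0.00232) and 0.27 ± 0.063 at 8 h (0.0213). The 8 h call was lost without any EV replicate or without RA replicate 1 or 2 (0.0594 to 0.104), and the 4 h call only in the fit of those groups alone (0.0786).

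Noc3l, which accompanies 60S precursors out of the nucleolus, had 29.1, 29.4 and 28.5 RPKM in EV at 8 h, 32.4, 31.3 and 27.4 in WT, 14.6, 18.4 and 16.4 in HEA and 25.7, 25.6 and 25.2 in RA. It fell in HEA by 0.80 ± 0.094 (adjusted p = 8.81e-07), and WT overlapped EV (0.06 ± 0.094, 0.65). Ftsj3, a methyltransferase of precursor RNA, had 102.3, 99.5 and 101.9 RPKM in EV, 107.0, 106.0 and 112.5 in WT and 66.5, 71.6 and 69.7 in HEA at 8 h. Its fall in HEA was 0.55 ± 0.059 (3.23e-07), and its WT difference was 0.10 ± 0.059 (0.207). Rrs1, which loads the 5S particle, fell in HEA by 0.54 ± 0.13 at 8 h and differed by 0.21 ± 0.13 in WT (0.228).

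Brix1, a further 60S factor, had 46.9, 48.3 and 47.8 RPKM in EV at 8 h, 58.5, 58.2 and 56.1 in WT, 53.8, 57.5 and 53.2 in HEA and 37.2, 45.3 and 41.5 in RA. WT and HEA lay above and RA below all EV libraries, with none of the 3 past the threshold (0.27 ± 0.12, 0.20 ± 0.12 and -0.21 ± 0.12). Among the helicases of this group, Ddx18 and Ddx56 rose in WT by 0.38 ± 0.065 and 0.41 ± 0.076 and fell in HEA by 0.24 ± 0.065 and 0.26 ± 0.076, both falls being lost after median centring (0.0718 and 0.0815). Ddx27 rose by 0.38 ± 0.063 in WT and differed by -0.01 ± 0.063 in HEA. The methyltransferase Nop2, Mrto4, Nop16 and nucleostemin (Gnl3) fell in HEA by 0.33 to 0.52 and rose in WT by 0.16 to 0.38 at 8 h. The rise of Gnl3 was lost without EV replicate 1 or 3 or WT replicate 1 or 2 (0.0645 to 0.0891).

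The direct test placed WT above HEA for 48 members at 4 h, where 26.9% of tested genes were higher and 22.6% lower, and for 49 at 8 h, where 24.6% were higher and 23.4% lower. The count of members lower in WT than in HEA was 0 at both times in limma, also at an unadjusted p under 0.05 and with voom. All 3 WT libraries at 4 h lay above all 3 HEA libraries in 47 members and below them in 0, where 26.9% and 22.1% of tested genes did so. The median difference was 0.52 at 4 h and 0.62 at 8 h. By this test the widest gaps at 8 h were those of Rrp9 (1.47 ± 0.073, adjusted p = 3.29e-12), Rcl1 (1.44 ± 0.13, 1.9e-08), Pwp2 (1.38 ± 0.074, 1.03e-11), Rrp1b (1.17 ± 0.06, 5.44e-12) and Bysl (1.16 ± 0.095, 3.67e-09). The 8 members without a call were Nop10, Npm1, Nop14, Ddx49, Noc4l, Ddx10, Ddx52 and Brix1.

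At 8 h 28 members were both higher in WT and lower in HEA than the EV libraries they share, as were 3.52% of all tested genes. In both WT and HEA 5 were higher (Ddx10, Ddx49, Imp3, Noc4l and Rrp12), as were 5.27% of tested genes, and 11 were higher in WT with no call in HEA, as were 6.38%. Another 8 were lower in HEA with no call in WT (Dkc1, Ftsj3, Ltv1, Mybbp1a, Noc3l, Nop58, Rcl1 and Rrs1), a pattern of 15.0% of tested genes, and 5 had neither call (Brix1, Ddx52, Fbl, Gar1 and Nop10), as had 37.9%. All 28 of the first kind were higher in WT than in HEA by the direct test, which follows largely from how they were picked. All 8 of the fourth were too, and picking members called lower in HEA favours that outcome. Neither count is therefore further support. Of the 5 higher in both, Imp3 (0.29 ± 0.085, adjusted p = 0.00863) and Rrp12 (0.40 ± 0.082, 0.000424) were higher in WT than in HEA.

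**Figure D4:**
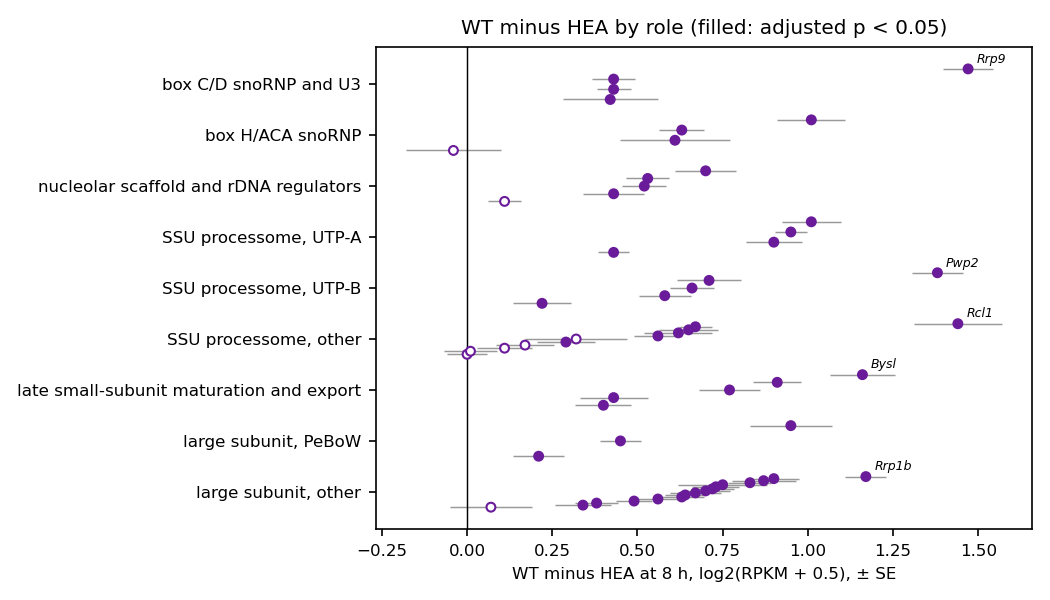
WT minus HEA at 8 h for each member in log2(RPKM + 0.5) with bars of 1 SE, by role, with filled points for an adjusted p under 0.05. Members run from -0.04 (Nop10) to 1.47 (Rrp9), and 5 of the 8 open points are in the group of other SSU processome factors.

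WT was also above RA for 49 members at 4 h, where 15.0% of tested genes were higher and 19.9% lower, and for 53 at 8 h, where 17.3% were higher and 24.4% lower. The median difference was 0.41 at 4 h and 0.44 at 8 h. The widest gaps at 8 h were those of Rrp1b (0.95 ± 0.06, adjusted p = 4.56e-10), Rrp9 (0.87 ± 0.073, 1.76e-08), Ncl (0.87 ± 0.09, 2.74e-07) and Wdr12 (0.83 ± 0.12, 1.3e-05). Ltv1 (0.18 ± 0.089, 0.11), Fbl (0.35 ± 0.14, 0.054) and Nop10 (0.32 ± 0.14, 0.0798) did not pass.

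Calls for RA at 4 h changed with the library left out. The 8 members lower were Nop56, Rrp9, Nolc1, Wdr3, Rrs1, Nmd3, Rrp1b and Ppan, and only Rrp1b and Ppan kept the call whichever library was left out. The count of members called ranged from 2 to 13 over the left-out libraries and was 3 without the 3 farthest libraries.

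Time in OHT moved few members. Between 4 h and 8 h 0 members changed in EV and in RA by limma, with 4 lower and 0 higher at an unadjusted p under 0.05 in EV, 2 higher and 2 lower in RA, and 0 by voom in both. Among tested genes 0.0245% fell in EV and 0.155% rose in RA. In WT Ddx47 rose by 0.37 ± 0.10 from 4 h to 8 h (adjusted p = 0.028), where 4.46% of tested genes rose, and this was 0 members without the 3 farthest libraries. In HEA Utp20 fell by 0.29 ± 0.048 (0.00202), Heatr1 by 0.23 ± 0.047 (0.00924) and Ftsj3 by 0.28 ± 0.059 (0.0138), where 2.08% of tested genes fell and 1.26% rose, and 0 were called when only the HEA groups entered the fit. A test of whether the difference between WT and EV itself changed from 4 h to 8 h called 0 members in limma and in voom, with 5 at an unadjusted p under 0.05, all higher at 8 h, and 0.0163% of tested genes called lower.

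Calls were also counted by whether the promoter window holds CACGTG, without a test between the sets. In WT at 8 h 8 of the 10 with it and 31 of the 40 without it rose, with medians of 0.27 and 0.32. In HEA at 8 h 8 of the 10 and 26 of the 40 fell, with medians of -0.24 and -0.29. Rrp9, Rcl1, Pwp2, Rrp1b and Bysl, the 5 members with the widest gaps between WT and HEA at 8 h, were all among the 40 without it. Those 40 are most of the 50 members with a window, so 5 picked by their gaps say little about the motif.

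A further 98 genes of ribosome assembly, chosen by function, were counted in the same fit. In WT at 8 h 53 rose and 0 fell in limma, with 61 and 0 at an unadjusted p under 0.05, where 15.2% of all tested genes rose and 20.1% fell. In HEA 12 rose and 45 fell, where 20.2% of tested genes rose and 27.5% fell. WT was above HEA for 71 of them and below for 0, with 72 and 1 at an unadjusted p under 0.05, where 24.6% of tested genes were above and 23.4% below. In RA 1 fell (Cirh1a) and 0 rose, with 16 and 0 at an unadjusted p under 0.05, and this 1 of 98 is near the 1.29% of tested genes that fell. These count alternatives were not run with voom for the further genes. By class, 17 of 34 further SSU and 40S factors, 21 of 39 60S factors, 7 of 10 snoRNP proteins and assembly factors and 8 of 15 nuclear exosome subunits rose in WT at 8 h.

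Naf1 and Shq1, both chaperones that load Dkc1 into H/ACA particles, went opposite ways in HEA. Like the further genes named below, they were the 2 of their class with the lowest p for WT against EV at 8 h. Their differences in WT therefore follow largely from the pick and are no further support. Naf1 had 15.6, 18.5 and 16.1 RPKM in EV at 8 h, 28.7, 29.6 and 33.5 in WT and 11.9, 11.3 and 9.93 in HEA. Shq1 had 14.1, 14.7 and 14.6 RPKM in EV, 26.8, 25.6 and 24.7 in WT and 21.3, 22.0 and 20.6 in HEA. WT was above EV for both, while HEA was below EV for Naf1 (-0.58 ± 0.11, adjusted p = 0.000214) and above it for Shq1 (0.54 ± 0.083, 2.4e-05).

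Rbm28, a 60S factor, joined Shq1 in rising in both forms, by 0.67 ± 0.048 in WT and 0.45 ± 0.048 in HEA. Urb2, a further 60S factor, rose by 0.54 ± 0.059 in WT and fell by 0.34 ± 0.059 in HEA. Cirh1a, a UTP-A subunit, rose by 0.48 ± 0.06 in WT and fell by 0.22 ± 0.06 in HEA. Pdcd11, an SSU scaffold, rose by 0.59 ± 0.077 in WT with a difference of 0.06 ± 0.077 in HEA, and the exosome genes Exosc7 and Exosc10 rose in WT by 0.57 ± 0.09 and 0.36 ± 0.054.

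In the authors' deposited table, which compares each form with EV, an adjusted p under 0.05 was held by 27 members higher and 0 lower in WT at 4 h, where 7.84% of its genes were higher and 9.2% lower. At 8 h the authors' deposited table held 49 members higher and 0 lower in WT, where 15.6% of its genes were higher and 17.0% lower. For HEA the authors' deposited table held 1 higher and 24 lower at 4 h, against 16.8% and 16.2% of its genes, and 8 higher and 32 lower at 8 h, against 24.5% and 25.3%. For RA the authors' deposited table held 0 higher and 5 lower at 4 h, against 2.22% and 3.13% of its genes, and 1 higher and 19 lower at 8 h, against 7.65% and 8.16%.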

How the data were processed

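RNA was column-purified with a DNase step, and a kit that keeps the strand of total RNA was used for the libraries, per the labels' protocols. Build mm9 and the tools DESeq2, featureCounts 1.4.5-p1, SAMtools, TopHat and TopHat2 2.0.8 are named in the submitters' processing notes. Not given in the sources used here are the annotation, the strand setting and the treatment of duplicates.

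The authors deposited RPKM for 21671 genes in 24 libraries, per the file headers. A second table that the authors deposited, of comparisons with EV, holds per its headers a mean normalised signal (baseMean), log2 fold changes, a test score and p-values, and is printed only where named.

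Genes with at least 1 RPKM in at least 3 libraries were tested, 12268 in all, with limma-trend 3.58.1 in R 4.3.3 on log2(RPKM + 0.5). A single fit of the 8 group means used all libraries, with 16 residual degrees of freedom. P-values were adjusted by Benjamini-Hochberg over all tested genes in each of 15 comparisons. Fold changes on this scale understate those of low genes. The count test foreseen for raw counts did not apply to RPKM. Whole reads were recovered as alternatives: 100.0% of the 362673 values over 0 came to a whole number to within 0.01 read. The fit was also run on simulated reads with the same spread for every gene and no outlying libraries. That setting differs from these data, so it does not vouch for the calls here. Gene copies, overlapping genes and antisense partners that share reads could not be told apart.

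No measured value enters the rule for the members, but the members, lists, tests and named genes were chosen with earlier results of these data known. Genes named by rule were the 2 members of each role of lowest p for WT against EV at 8 h, the members not called there, and up to 4 called in each comparison of HEA or RA with EV. Of the further genes of ribosome assembly, the 2 of each class with the lowest p for WT against EV at 8 h were named. Other members named with values were added after their values were seen.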

Additional observations from a re-analysis of the deposited data

How the results depend on the processing

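The alternatives were other pseudocounts, no filter on low values, no trend, quantile normalisation, median centring, a fit of only the groups compared, voom on recovered reads, the library total as covariate, the replicate number as a block and leaving out each library in turn. Leaving out the 3 farthest libraries was chosen after seeing the data. No member changed direction among its calls.

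Counts of members called moved by over 1.5 times as follows. With only the groups compared in the fit, 19 were called in WT against EV at 4 h, 0 in RA at 4 h, 15 in RA at 8 h, 0 between times in WT and 0 between times in HEA. Without the 3 farthest libraries, 3 were called in RA at 4 h, 7 in RA at 8 h and 0 between times in WT. For RA at 8 h the count was 4 with a pseudocount of 1, 2 with no filter, 5 after quantile normalisation and 4 with voom. Between times in WT it was 2 after median centring and 0 with the library total as covariate. The cause of these moves was not tested, except that the smaller fits hold fewer libraries.

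Leaving out 1 library gave 32 to 41 calls in WT and 33 to 44 in HEA at 4 h, 35 to 47 and 35 to 42 at 8 h, 2 to 13 in RA at 4 h and 0 to 4 at 8 h, 0 to 7 between times in WT and 1 to 3 in HEA. WT against HEA gave 46 to 48 at 4 h and 46 to 51 at 8 h, and WT against RA 46 to 52 and 49 to 56. Of the 44 members higher in WT at 8 h, 33 kept the call in all such fits.

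Over 84 pairs of libraries with the same replicate number the median correlation of deviations was 0.0232, with a range of -0.598 to 0.407. For pairs with other numbers the median was -0.0103, and 9 of 24 libraries correlated best with their own number. These values cannot settle whether the samples were paired. With the number as a block, 37 members were called in WT at 4 h, 44 in WT at 8 h, 39 in HEA at each time, 7 in RA at 4 h and 1 at 8 h, 48 in WT against HEA at each time, and 48 and 53 in WT against RA.

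Members had means of at least 367 recovered reads a library, the lowest being Gar1, followed by Nop10 at 436. With 3 libraries a group, Fbl, Gar1, Nop10 and Nop14 had SEs of 0.14 to 0.16, and the part of depth in these was not tested.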
